A study of Mus musculus with 6 samples.

Results

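The subject was a set of NF-kB subunit genes and genes that NF-kB drives toward survival: Nfkb1, Nfkb2, Rel, Rela, Relb, Map3k8, Birc2, Birc3 and Traf1. A member was every probe set whose gene symbol in the platform annotation was exactly one of these 9 names, and the brightest probe set of a gene, by its mean over the 6 arrays, stood for it. Of the 9 genes 8 had a probe set, with 11 probe sets among the 34945 that carry 1 symbol, and 8 of 18193 genes. Nfkb1 matched no named probe set and was not analysed here. All 8 genes were above the median signal of the array on every array, so all 8 passed the filter that left 10828 genes for testing.

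CD8+ T cells, described as naive, came from the spleens of C57/BL6 mice. The mice were either wild type (Nrdp1+/+) or lacked Nrdp1 (Nrdp1-/-), an E3 ubiquitin ligase encoded by Rnf41. They were left untreated or were stimulated for 4 h or 8 h with immobilized antibody to CD3 (5 µg/ml) together with antibody to CD28 in solution (1 µg/ml), which engage the T cell receptor complex and its costimulator. The sample labels of the stimulated cells name anti-CD28 alone, while the treatment description names both antibodies. Each genotype and condition had 1 array, and the labels give neither the number of mice nor their age, nor say whether animals were pooled or how the allele was made. The p-values of the main model therefore do not measure a spread between replicate arrays. Its residual is the departure of a gene from additive effects of time and genotype, which may be technical or a genotype-specific response. That residual has 2 degrees of freedom, and 8.97 more come from the trend of variance with intensity over all tested genes. The standard errors rest on the same spread.

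NF-kB is a family of dimeric transcription factors that share a DNA-binding Rel homology region. In the canonical pathway the T cell receptor activates the IKK kinase, inhibitory IkB proteins are degraded, and dimers that contain Rela or Rel enter the nucleus. In the noncanonical pathway the p100 product of Nfkb2 is processed to p52, which pairs with Relb. Several subunit genes are themselves NF-kB targets, as are genes for proteins that hold back cell death, among them the IAP proteins and the adaptor Traf1.

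The arrays were alike in signs of RNA integrity. The ratio of 3' to 5' control probe sets ran from 0.815 to 0.894 in the case of Gapdh and from 1.39 to 1.53 in that of beta-actin. The median signal was 61.8 to 68.8 per array. The deposited values were already scaled to a common trimmed mean, so this likeness is no check of brightness. All 7 measured CD8+ T cell markers, Cd8a and Cd3e among them, lay above the array median on every array, although the extraction protocol in the labels speaks of colon. Of 8 colon epithelium markers 1 to 3 lay above it, and of 6 smooth muscle markers 0 to 2. The brightest probe set of the targeted gene Rnf41 read 728, 505 and 639 in untreated, 4 h and 8 h wild-type cells and 528, 437 and 477 in Nrdp1-/- cells. The mean difference of -0.36 ± 0.12 (SE) on the log2 scale was not called (limma, adjusted p = 0.128). Which part of the gene was deleted is not given in the sources used here, so this probe set does not check the labels. A dimmer Rnf41 probe set read 181, 166 and 161 in wild-type and 54.5, 70.9 and 83.7 in Nrdp1-/- cells. Its mean log2 difference was -1.25, and it was above the array median on 5 arrays. The remaining probe sets differed by -0.0020 and 0.25, the latter with 0 arrays above the median. The differences of these dimmer probe sets were not tested.

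Promoter sequence is shown first because members of the set are known targets of NF-kB itself. The RefSeq promoter table on GRCm38.p6 held windows from 250 bases before to 50 bases after a transcription start for 6 of the 9 genes. The kappa-B consensus, a motif of 10 bases, was searched on both strands in each window of 300 bases. It occurred in 2 of these 6 genes, Nfkb2 and Rel, in 2779 of all 32851 windows (8.46%) and in 12.1% of the 8836 tested genes with a window. The 250 bases before the start are printed below for both genes with a match, and for Rela and Birc3, which had none. Capitals mark matches on either strand, with overlapping matches merged into 1 run. They lie at chr19:46304487-46304736 on the plus strand for Nfkb2, chr11:23770970-23771219 on the minus strand for Rel, chr19:5637291-5637540 on the plus strand for Rela and chr9:7873171-7873420 on the minus strand for Birc3.
Nfkb2: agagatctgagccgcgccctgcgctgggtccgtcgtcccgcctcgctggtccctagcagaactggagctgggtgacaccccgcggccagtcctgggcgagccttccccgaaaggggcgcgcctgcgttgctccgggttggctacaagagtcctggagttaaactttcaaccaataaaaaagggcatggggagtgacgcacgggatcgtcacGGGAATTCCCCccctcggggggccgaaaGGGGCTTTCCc
Rel: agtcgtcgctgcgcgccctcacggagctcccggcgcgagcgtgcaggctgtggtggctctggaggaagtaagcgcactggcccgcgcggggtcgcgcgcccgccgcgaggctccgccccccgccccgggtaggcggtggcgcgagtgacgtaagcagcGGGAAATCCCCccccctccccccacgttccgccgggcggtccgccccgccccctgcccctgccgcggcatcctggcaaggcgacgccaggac
Rela: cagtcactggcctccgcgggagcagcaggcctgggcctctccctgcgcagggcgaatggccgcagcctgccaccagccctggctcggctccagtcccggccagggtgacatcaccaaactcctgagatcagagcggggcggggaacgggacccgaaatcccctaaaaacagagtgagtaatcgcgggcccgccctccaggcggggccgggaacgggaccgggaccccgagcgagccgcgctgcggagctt
Birc3: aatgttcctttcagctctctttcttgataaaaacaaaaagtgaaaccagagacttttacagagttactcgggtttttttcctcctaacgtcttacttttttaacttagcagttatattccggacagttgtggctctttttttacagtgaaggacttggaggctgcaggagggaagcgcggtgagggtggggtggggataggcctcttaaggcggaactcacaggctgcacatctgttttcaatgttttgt
In the Nfkb2 window 1 match ended 1 base before the start, and the overlapping pair ended 29 and 28 bases before it. Windows at 2 other annotated Nfkb2 starts held 2 further matches, 1 of them 226 bases before the second start. The other lay at chr19:46305705-46305714, 10 bases after the second start, and is given with 10 bases on either side.
Nfkb2, second start: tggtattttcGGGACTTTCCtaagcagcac
In Rel the overlapping pair ended 82 and 81 bases before the start. A match is a description of the letters in these windows, and its absence from the Rela, Birc2, Birc3 and Traf1 windows says nothing of sites elsewhere.

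After 4 h of stimulation 5 of the 8 measured genes rose, 3 of the 4 measured subunits among them. Nfkb2 and Relb, the partners of the noncanonical pathway, had the largest differences of the 8, at 3.38-fold and 2.69-fold. Rel rose 2.04-fold and the kinase gene Map3k8 1.92-fold, while the IAP gene Birc3 rose 1.49-fold. Rela, Birc2 and Traf1 did not pass the threshold. The test was limma over all 10828 genes, with time and genotype as additive terms and a Benjamini-Hochberg adjusted p under 0.05, and the background of genes called higher in this comparison was 8.02% (5.51% lower). The median log2 difference of the 8 genes was 0.76, against -0.05 over all tested genes. Every fold change is on the scale of log2(signal + 4.45).

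**Figure D1:**
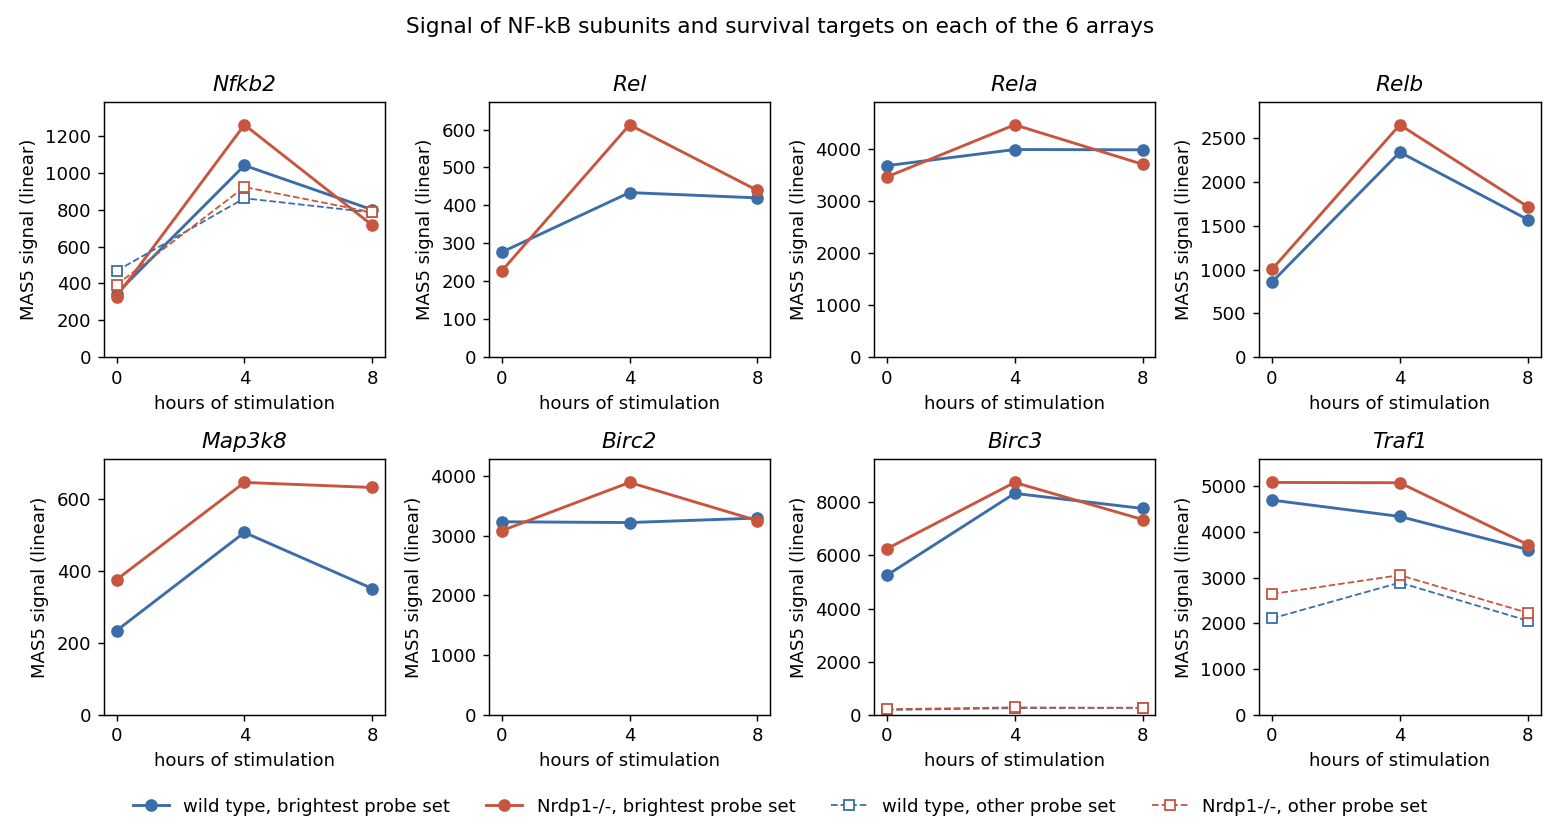
Linear MAS5 signal against hours of stimulation for the 8 measured genes, with 1 point per array, wild type in blue and Nrdp1-/- in red, filled circles for the brightest probe set and open squares for another probe set of the gene. Nfkb2, Rel, Relb, Map3k8 and Birc3 are lowest on the untreated array of either genotype, whereas Rela and Birc2 keep a near level signal in wild-type cells.

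Nfkb2 encodes p100, which serves both as an inhibitor and as the precursor of p52. Its signal was 345 in untreated wild-type cells, 1042 at 4 h and 801 at 8 h, and 328, 1263 and 717 in Nrdp1-/- cells. Both untreated arrays lay below all 4 stimulated arrays, and the 4 h array was the highest of either genotype. The log2 difference was 1.76 ± 0.15 (SE, 6 arrays) at 4 h (limma, adjusted p = 2.1e-05) and 1.16 ± 0.15 at 8 h (limma, adjusted p = 0.000388). A dimmer probe set, which the design marks as possibly matching other transcripts, also rose by the mean of both genotypes, by 1.05 at 4 h and 0.87 at 8 h.

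Relb, the transactivating partner of p52, followed the same course. Its signal was 855, 2341 and 1571 in untreated, 4 h and 8 h wild-type cells and 1000.3, 2654 and 1718 in Nrdp1-/- cells. The groups of untreated, 4 h and 8 h arrays did not overlap. How many of all tested genes separate the arrays in such ways was not counted, here or for the other genes and marker sums. The difference from untreated was 1.43 ± 0.11 at 4 h (limma, adjusted p = 9.29e-06) and 0.83 ± 0.11 at 8 h (limma, adjusted p = 0.000496).

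Rel encodes c-Rel, the subunit tied to Il2 transcription and to lymphocyte growth. It read 276, 434 and 420 in wild-type cells and 227, 613 and 439 in Nrdp1-/- cells. All 4 stimulated arrays were above both untreated arrays. The difference was 1.03 ± 0.20 at 4 h (limma, adjusted p = 0.00576) and 0.77 ± 0.20 at 8 h (limma, adjusted p = 0.0199). Rel at 8 h was no longer called when the untreated Nrdp1-/- array was left out, where the difference was 0.49.

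Rela, which encodes the p65 subunit of the main canonical dimer, moved little. Its signal was 3672, 3982 and 3976 in wild-type cells and 3455, 4456 and 3699 in Nrdp1-/- cells. The untreated arrays were lowest in each genotype, but the untreated wild-type array and the 8 h Nrdp1-/- array were within 30 units of each other. The difference of 0.24 ± 0.11 at 4 h (limma, adjusted p = 0.169) and 0.11 ± 0.11 at 8 h (limma, adjusted p = 0.536) did not pass the threshold.

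Map3k8 encodes Tpl2, a kinase held by the Nfkb1 product p105 until IKK releases it to activate the ERK pathway. It read 234, 507 and 351 in wild-type cells and 376, 647 and 633 in Nrdp1-/- cells. Within either genotype the untreated array was the lowest, but the untreated Nrdp1-/- array lay above the 8 h wild-type array. The difference over both genotypes was 0.94 ± 0.17 at 4 h (limma, adjusted p = 0.004) and 0.66 ± 0.17 at 8 h (limma, adjusted p = 0.0196). The 8 h call was lost without either untreated array (0.62 and 0.70 without the wild-type and the Nrdp1-/- one) and without the 8 h Nrdp1-/- array (0.50).

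Of the neighbouring IAP genes Birc3 was called and Birc2 was not. Birc2 encodes cIAP1 and Birc3 cIAP2, ubiquitin ligases that act on Ripk1 and on the NIK kinase of the noncanonical pathway. They lie side by side on chromosome 9 of GRCm38.p6, Birc2 at chr9:7818226-7837131 and Birc3 at chr9:7847468-7873205. Birc3 read 5250, 8338 and 7771 in wild-type cells and 6248, 8752 and 7353 in Nrdp1-/- cells, with both untreated arrays below all stimulated ones. Its difference was 0.58 ± 0.11 at 4 h (limma, adjusted p = 0.00444) and 0.40 ± 0.11 at 8 h (limma, adjusted p = 0.0227). A much dimmer probe set of Birc3 differed by 0.43 at both times and was not called at either. Birc3 was not called at either time without the untreated wild-type array, where its differences were 0.45 and 0.27, or at 8 h without the 8 h wild-type array (0.28). Birc2 read 3233, 3220 and 3295 in wild-type cells and 3082, 3892 and 3251 in Nrdp1-/- cells, so that only the 4 h Nrdp1-/- array stood above the rest. Its differences of 0.17 ± 0.11 and 0.05 ± 0.11 did not pass (limma, adjusted p = 0.385 at 4 h and 0.789 at 8 h). Whether the changes of Birc2 and Birc3 differ from each other was not tested.

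Traf1, an adaptor that binds TNF family receptors together with Traf2, gave a result that depended on the probe set. The brighter one read 4699, 4340 and 3616 in wild-type cells and 5085, 5078 and 3724 in Nrdp1-/- cells, with both 8 h arrays below the other 4. It fell by 0.41 at 8 h (-0.41 ± 0.10, limma, adjusted p = 0.0154), where 9.25% of all tested genes were called lower and 9.88% higher, and differed by -0.06 ± 0.10 at 4 h (limma, adjusted p = 0.767). The other probe set read 2107, 2891 and 2057 in wild-type cells and 2642, 3055 and 2229 in Nrdp1-/- cells, highest at 4 h in each genotype. In its place the difference was 0.33 at 4 h (limma, adjusted p = 0.0685) and -0.14 at 8 h (limma, adjusted p = 0.419), and neither was called. The fall at 8 h was also not called without either untreated array (-0.40 and -0.42) or without the 8 h Nrdp1-/- array (-0.35). The probe sets thus had opposite signs at 4 h.

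At 8 h the same 5 genes were called higher as at 4 h, with Traf1 the 1 called lower, and the median log2 difference of the 8 genes was 0.53 against -0.07 over all tested genes. The 4 h and 8 h comparisons share the untreated arrays. Without the intensity trend of the variance model 2 of the 8 genes were called at 4 h, Nfkb2 and Relb, and 0 at 8 h. With no genotype term Map3k8 lost its call at 4 h, and Rel, Map3k8, Birc3 and Traf1 lost theirs at 8 h. Birc3 at 8 h also lost it when each array was centred on its median (0.36), and Traf1 when the probe sets were averaged (-0.28).

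**Figure D2:**
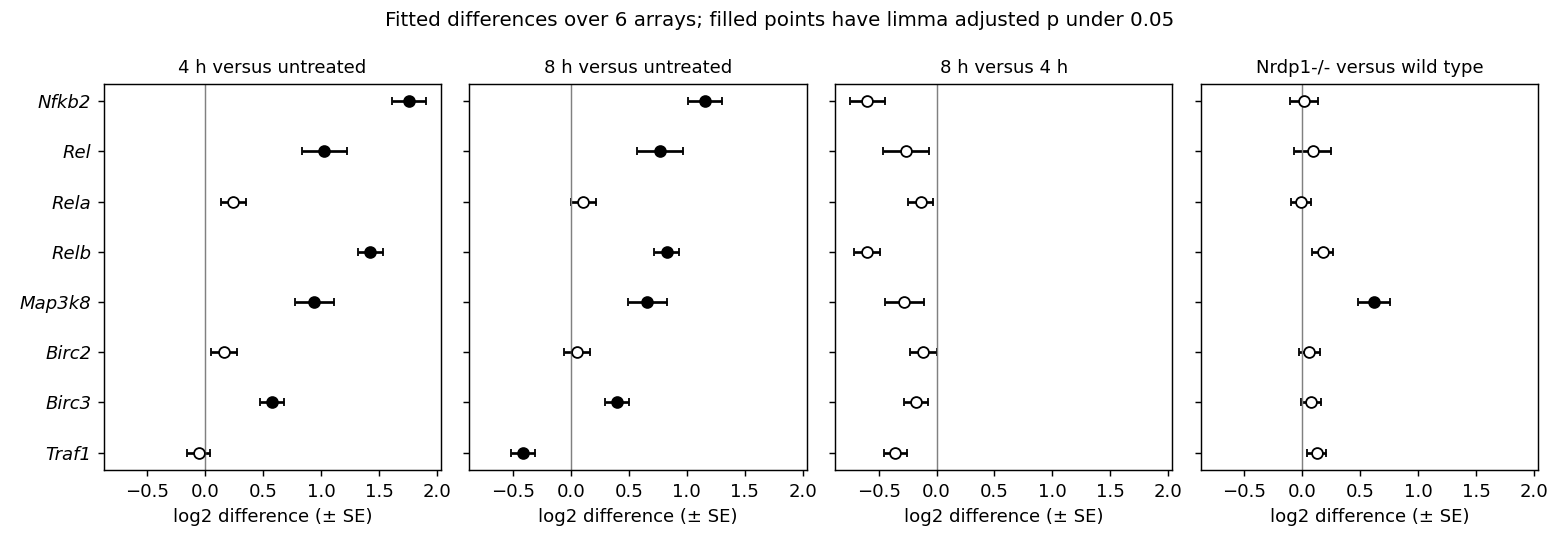
Fitted log2 difference with its standard error over the 6 arrays for each of the 8 measured genes in 4 comparisons, with filled points where the limma adjusted p is under 0.05. In the comparison of 8 h with 4 h all 8 points lie below 0 and none is filled, and Map3k8 is the 1 filled point between genotypes.

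Between 4 h and 8 h all 8 genes had a negative log2 difference, and 0 passed the threshold (limma), with 3 (Nfkb2, Relb and Traf1) at an unadjusted p under 0.05. The background was 0.0277% of tested genes called lower and 0.0185% called higher, that is 3 and 2 genes. The median of the 8 genes was -0.27 and that of all tested genes -0.01. The share of all tested genes with a negative difference was not counted. Between single arrays 7 of the 8 genes fell in wild-type and 8 in Nrdp1-/- cells. In wild-type cells Birc2 differed by 0.033, Rela by -0.0021 and Rel by -0.047. The same genes differed by -0.26, -0.27 and -0.48 in Nrdp1-/- cells. Relb differed by -0.60 ± 0.11 (limma, adjusted p = 0.0847) and Nfkb2 by -0.60 ± 0.15 (limma, adjusted p = 0.228). Traf1 differed by -0.36 ± 0.10 (limma, adjusted p = 0.316), and its other probe set by -0.47. On the stimulated arrays alone both Relb and Nfkb2 were called lower at 8 h (limma, adjusted p = 0.00292 and 0.0139). That fit rests on 4 arrays and called 0.702% of all tested genes lower, a larger share than the 0.0277% of the main model. Relb was also called when each array was centred on its median (-0.66), where 0.342% of all tested genes were called lower. Without the untreated wild-type, the untreated Nrdp1-/- or the 8 h wild-type array the Relb difference was -0.60, -0.60 and -0.64. The Nfkb2 difference ran from -0.79 to -0.40 when each array was left out. The other Nfkb2 probe set, with a mean signal of 704 against 750, differed by only -0.18 and was not called. The mean of both probe sets gave -0.39, also not called. The much dimmer Birc3 probe set differed by -0.0069. Map3k8 read 507 and 351 at 4 h and 8 h in wild-type cells and 647 and 633 in Nrdp1-/- cells, a contrast of single arrays with no test. In order of level within a gene, the 4 h array was the highest for Nfkb2, Rel, Relb, Map3k8 and Birc3 in both genotypes, followed by 8 h and then untreated, and the step between 4 h and 8 h did not pass the threshold for any of these 5.

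Loss of Nrdp1 went with a higher level of 1 of the 8 genes, Map3k8. It was above wild type at every time, by 0.67 before stimulation, 0.35 after 4 h and 0.84 after 8 h, with a mean difference of 0.62 ± 0.14, or 1.54-fold (limma, adjusted p = 0.0245). The background in this comparison was 2.48% of tested genes called higher and 2.58% lower. Map3k8 was not called without the 8 h wild-type or the 8 h Nrdp1-/- array (0.51, limma, adjusted p = 0.0740 and 0.0989), nor without the intensity trend. The other 7 genes did not pass the threshold. Relb differed by 0.18 ± 0.09 and was above wild type at all 3 times, by 0.22, 0.18 and 0.13 (limma, adjusted p = 0.365). The brighter Traf1 probe set, with 0.13 ± 0.08, was also above at all 3 times (limma, adjusted p = 0.497). Rel (0.09 ± 0.16), Birc3 (0.08 ± 0.09), Birc2 (0.06 ± 0.09), Nfkb2 (0.02 ± 0.12) and Rela (-0.01 ± 0.09) had differences of both signs over the 3 times.

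The genotype differences varied over the 3 times, with 1 pair of arrays at each. The 8 genes were read on the same pair and are no repeats of each other. At 4 h all 8 genes were above wild type on the Nrdp1-/- array, with a median of 0.25, while 51.3% of all tested genes were above wild type there. In untreated cells and at 8 h the count was 4 of 8 each, against 47.4% and 46.0% of all tested genes. The largest difference at 4 h was that of Rel, at 0.49, after -0.28 in untreated cells, so that Rel rose by 1.42 in Nrdp1-/- and 0.64 in wild-type cells. Nfkb2 changed by 1.93 and 1.58, and Relb by 1.40 and 1.45. Each is a difference between single arrays with no replicate check. The test of a genotype by stimulation interaction called 0 of the 8 genes in limma, and 0 reached an unadjusted p under 0.05. The background was 0.0924% of tested genes called with a higher and 0.129% with a lower difference. Rel came nearest, at 0.56 ± 0.35. That model left 1 residual degree of freedom and its spread was taken from the intensity trend alone.

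Markers of other cells moved with genotype, a comparison in which 2.48% of all tested genes were called higher and 2.58% lower. Of 10 measured B cell markers 9 were lower in Nrdp1-/- cells and 0 higher, led by Ms4a1, which encodes CD20 (-3.16 ± 0.13), and the summed signal of 13 B cell markers was 3101 to 3409 on Nrdp1-/- and 14488 to 16870 on wild-type arrays. Of 13 measured myeloid markers 6 were higher and 0 lower, among them the lysozyme gene Lyz1 (2.19 ± 0.32), which was above the array median on all 6 arrays. Clec7a was below it on the 3 wild-type arrays and was at least 3.09-fold higher in Nrdp1-/- cells, with the array median in place of lower values. The summed signal of 14 myeloid markers was 3434 to 13369 against 2160 to 2374. Of 11 genes that mark memory-like CD8+ cells 9 were called higher and 0 lower, led by Gzmk (2.28 ± 0.10). Their summed signal was 58246 to 67604 against 47389 to 56375. Klrd1 of this list, not called, went the other way at all 3 times. It read 20989, 14137 and 13216 in Nrdp1-/- and 23185, 19449 and 16549 in wild-type cells. All 11 genes lay above the array median on every array, untreated wild type included. The sums of the 3 lists did not overlap between genotypes. In B and myeloid cells Rel, Relb, Nfkb2 and Map3k8 are active as well. The myeloid sum on Nrdp1-/- arrays fell from 13369 in untreated cells to 8846 at 4 h and 3434 at 8 h, while Map3k8 on the same arrays went from 376 to 647 and 633. The part of these cells in the genotype differences was not tested, and fewer cells of a type and less RNA per cell cannot be told apart in such bulk samples. With stimulation 8.02% of all tested genes were called higher and 5.51% lower at 4 h, and 9.88% and 9.25% at 8 h. Marker counts near these shares are no result about the markers. The 10 B cell markers had 0 called in limma at 4 h (3 at an unadjusted p under 0.05), and 0 higher and 1 lower at 8 h. The 13 myeloid markers had 1 higher and 1 lower at 4 h, and 1 higher and 6 lower at 8 h. The 11 memory-like markers had 1 higher and 3 lower, then 2 higher and 4 lower, and the 7 CD8+ T cell markers 0 higher at either time, with 1 lower at 4 h and 2 at 8 h.

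**Figure D3:**
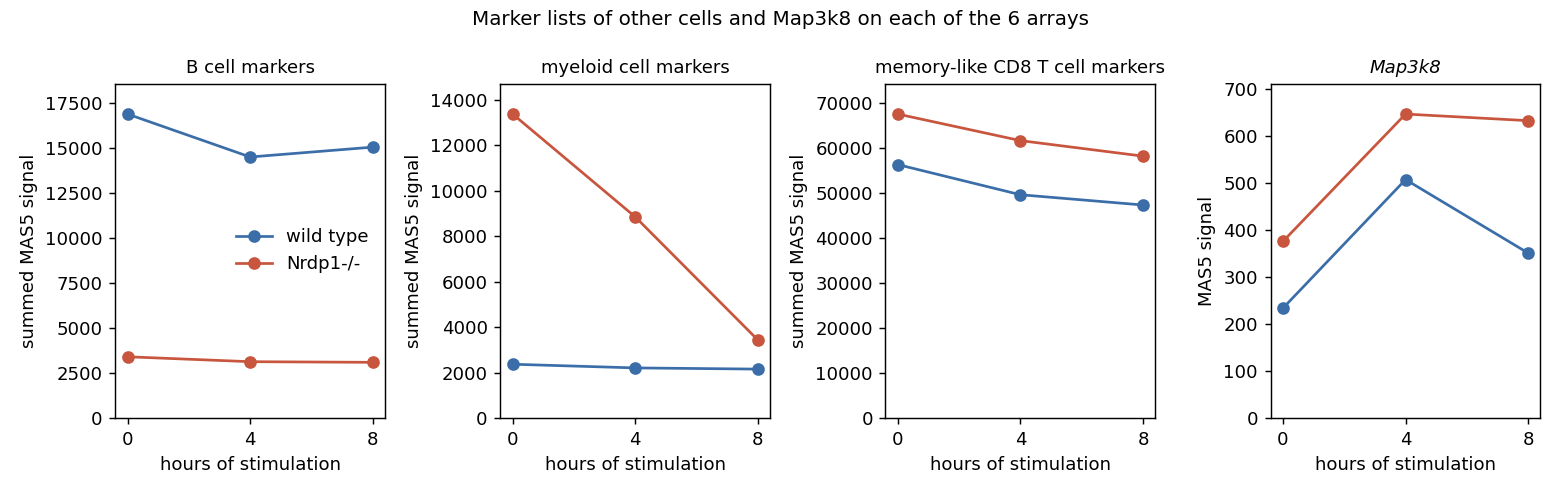
Summed MAS5 signal of marker lists of B cells, myeloid cells and memory-like CD8+ T cells, and MAS5 signal of Map3k8, against hours of stimulation on each of the 6 arrays, wild type in blue and Nrdp1-/- in red. The myeloid sum of Nrdp1-/- cells goes from 13369 to 3434. Map3k8 is higher on the stimulated arrays than on the untreated array of either genotype, and its relation to the sums was not tested.

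Genes around the set were examined in 8 lists by their role, and most of the genes called at 4 h were feedback inhibitors, TNF family members or survival genes. Over all tested genes 8.02% were called higher and 5.51% lower at 4 h, 9.88% and 9.25% at 8 h, and 2.48% and 2.58% between genotypes, and a list's count near these shares is no result about the list. Upstream, the 10 measured genes that carry the signal from the T cell receptor to IKK, such as Prkcq, Bcl10, Malt1 and Ikbkb, had 0 called by limma at 4 h, 8 h or between genotypes (2 in each at an unadjusted p under 0.05), with log2 differences of -0.19 to 0.40 at 4 h. Malt1, the paracaspase of that complex, had 0.40 ± 0.13 (limma, adjusted p = 0.0641). The noncanonical arm and the TRAF adaptors had 0 higher and 1 lower of 7 genes at both times. The lower gene was Traf5, at -0.61 ± 0.12 and -0.51 ± 0.12, with a signal of 2003, 1196 and 1378 in wild-type cells and 1662, 1196 and 1183 in Nrdp1-/- cells. Map3k14, which encodes NIK, differed by 0.03 ± 0.14 at 4 h and -0.25 ± 0.14 at 8 h and was not called.

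Of 14 measured genes for IkB proteins and A20 feedback 7 rose and 1 fell at 4 h, and 7 rose and 0 fell at 8 h, with medians of 0.46 and 0.47. Nfkbid, an atypical nuclear IkB protein, Bcl3, which binds p50 and p52, and Tnfaip3, the gene of the deubiquitinase A20, had the largest rises at 4 h, at 2.42 ± 0.15, 1.97 ± 0.14 and 0.99 ± 0.10. Nfkbia, the gene of the classical inhibitor IkB alpha, rose by 0.63 ± 0.10. Otud7b, a deubiquitinase of the noncanonical pathway, fell at 4 h (-0.86 ± 0.20) and was not called at 8 h (-0.47 ± 0.20). Between genotypes 0 of the 14 were called in limma (1 at an unadjusted p under 0.05), with differences of -0.30 to 0.23.

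Several TNF family genes changed more than any of the 8 NF-kB genes. Of 7 measured ligands 3 rose at 4 h and 4 at 8 h. Lta, which encodes lymphotoxin alpha, rose by 2.40 ± 0.20 and 2.64 ± 0.20, from levels above the array median. For genes below it on an untreated array, that median took the place of the lower value, and the rise is given as a bound. Tnf, below it on 1 of 2 untreated arrays, rose at least 14.4-fold and at least 11.6-fold. Tnfsf14, below it on both, rose at least 14.7-fold at 4 h and at least 7.21-fold at 8 h. Tnfsf8, below it on 1, rose at least 2.45-fold at 8 h. Of 8 measured receptors 3 rose at 4 h, Tnfrsf9 (2.91 ± 0.18), Tnfrsf18 (0.88 ± 0.10) and Tnfrsf1b (0.71 ± 0.15), and 3 rose at 8 h, Tnfrsf9 (8.01-fold), Cd40 (at least 1.99-fold, with 1 untreated array below the median) and Tnfrsf18 (0.93 ± 0.10). Tnfrsf9 and Tnfrsf18 encode costimulators that recruit TRAF adaptors. Between genotypes 2 ligands were called higher in Nrdp1-/- cells, Tnf and Tnfsf14. Tnf was at least 1.76-fold higher by the same bound. The Tnfsf14 call includes untreated arrays that were both below the median, and on the stimulated arrays its difference was 0.56 at 4 h and 0.74 at 8 h. Of the receptors Tnfrsf9 (0.64 ± 0.15) and Tnfrsf14 were called higher. Tnfrsf14, which encodes the Tnfsf14 receptor HVEM, read 43.4, 50.4 and 113 in wild-type and 516, 757 and 517 in Nrdp1-/- cells, with no overlap. It was below the array median on 2 of 3 wild-type arrays, and at least 7.08-fold higher in Nrdp1-/- cells. The B cell, myeloid and memory-like marker sums given above differ between the same arrays, and their part in these differences, or in those of the survival genes, was not tested.

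Of 8 measured survival genes 3 rose and 1 fell at either time, the 1 lower gene being near the share over all tested genes. Gadd45b rose by 1.93 ± 0.12 and 1.64 ± 0.12 and Bcl2l1, the gene of Bcl-xL, by 0.99 ± 0.16 and 1.00 ± 0.16. Sod2 was the third at 4 h (0.36 ± 0.11) and Bcl2 at 8 h (0.72 ± 0.10), while Ier3 fell by 0.65 (-0.65 ± 0.15) and by 0.66 (-0.66 ± 0.15). Bcl2 (0.62 ± 0.08), Ier3 (0.61 ± 0.13) and Gadd45b (0.49 ± 0.10) were higher in Nrdp1-/- cells. Among 11 genes of the death receptor complex and IAP partners 0 were called at 4 h by limma (3 at an unadjusted p under 0.05), and Casp9 was the 1 lower gene at 8 h (-0.75 ± 0.17). These counts are near the shares over all tested genes. The Map3k8 to ERK arm had 0 of 5 genes called by limma in these comparisons (0 also at an unadjusted p under 0.05), with 4 h differences of -0.17 to 0.16.

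**Figure D4:**
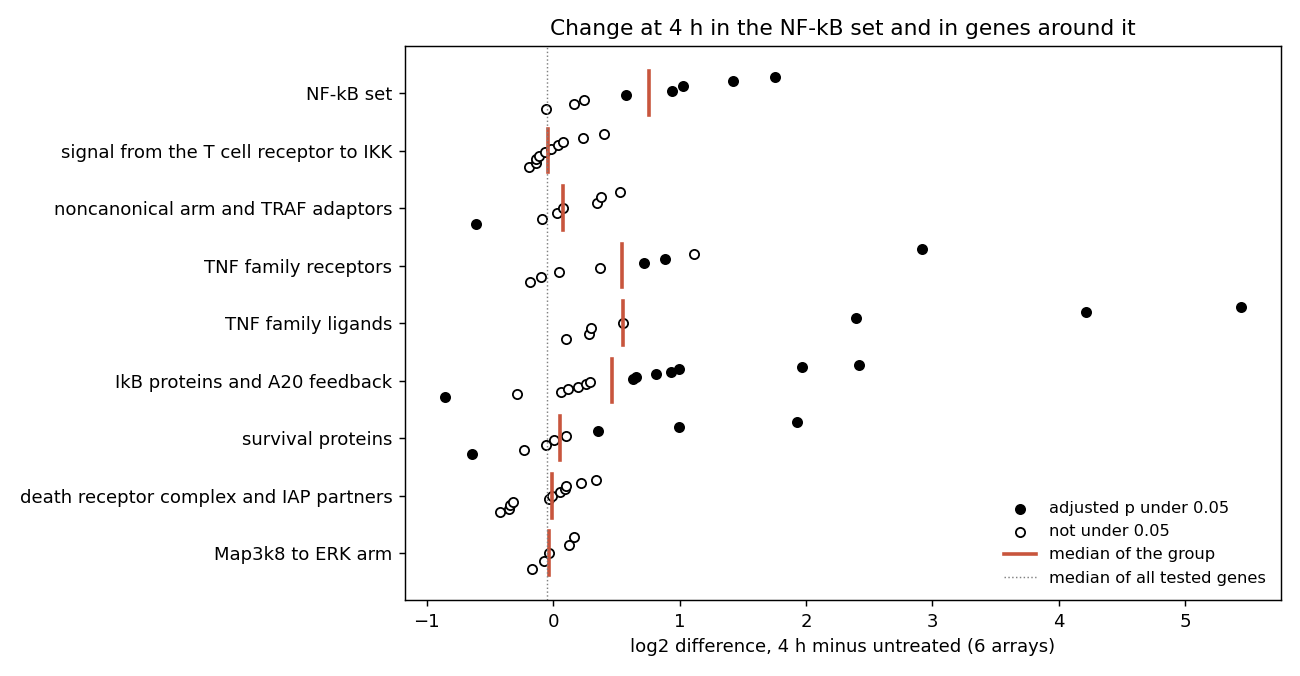
Log2 difference between 4 h and untreated cells over the 6 arrays for the NF-kB set and 8 lists of genes around it, with 1 point per gene, filled where the limma adjusted p is under 0.05, a red bar at each list's median and a dotted line at the median of all tested genes. The median is 0.76 in the NF-kB set and 0.46 in the IkB and A20 list, and -0.04 in the list from the T cell receptor to IKK.

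Within the set, log2 profiles over the 6 arrays were most alike between Nfkb2 and Relb, with a Pearson r of 0.98, and between Relb and Birc3 and between Nfkb2 and Rel, with 0.96 each. Traf1 had an r of -0.27 to 0.26 with the other 7 genes. These values describe 6 arrays that share the same stimulation. Among all tested genes, the profile closest to Nfkb2, by the root mean square difference of centred log2 values, was that of 5830468F06Rik (0.16, r = 0.98), which was below the array median on both untreated arrays. Mdn1 was as close (0.16, r = 0.98). Rel was closest to Sdad1 (0.06, r = 0.99) and Rnf213 (0.09, r = 0.99), and Relb to Rasgef1a (0.13, r = 0.98) and Bcl6 (0.14, r = 0.98). Rela was closest to Ube2k (0.03, r = 0.98) and Fnbp4 (0.03, r = 0.97), and Map3k8 to Vmp1 (0.11, r = 0.98) and Zfp783 (0.11, r = 0.98). Birc2 was closest to Daxx (0.04, r = 0.94) and Bora (0.04, r = 0.96), Birc3 to Septin7 (0.05, r = 0.99) and Pdxp (0.05, r = 0.98), and Traf1 to Plpbp (0.05, r = 0.98) and Gm30054 (0.05, r = 0.97).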

How the data were processed

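RNA of the 6 samples was hybridised to Affymetrix whole-genome mouse arrays after biotin labelling, per the labels' protocols. The deposited values are signal intensities per probe set on a linear scale, made by the authors with MAS5, which the submitters' processing notes name without a version. Scaling is visible in the files: trimmed of 2% at either end, the mean is 500.0 on all 6 arrays, so a shift common to most transcripts cannot be seen. The depth behind a value has no count, and the number of arrays limits the precision.

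Of 45101 probe sets 64 controls were left out, 34945 carried 1 symbol, 932 several, and 9160 are unnamed here. Entrez identifiers of 34754 probe sets matched NCBI RefSeq annotation of GRCm38.p6, with 0 symbols changed. The brightest probe set stood for a gene, and 4.45, the 10th percentile over the whole table, was added before taking log2. Genes at or above the array median on at least 2 arrays entered a linear model in limma 3.58.1 under R 4.3.3 (lmFit, eBayes with an intensity trend, 2 residual and 8.97 prior degrees of freedom). The script was tested on simulated data. Groups were taken from the sample titles. Alternatives were quantile normalization, median centring, other pseudocounts and filters, other probe sets, no trend, no genotype term, a fit to the 4 stimulated arrays, and omission of every array in turn.

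The members, the pathway and marker lists and the rule for naming genes were chosen with earlier results of these data known. Named were all members, the 3 genes per direction with the largest called change in each pathway list, the 2 closest profiles per member, and up to 4 leading markers of other cells. Genes named beyond this rule (Nfkbia, Malt1, Map3k14 and some that were not called) were chosen after their values were seen.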

Additional observations from a re-analysis of the deposited data

How the results depend on the processing

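Nfkb2 and Relb stayed called at 4 h under every alternative run, and at 8 h under every one except the model without the intensity trend. Among the single-gene values under alternatives 483 kept their direction and their side of the threshold, 32 lost and 8 gained the call, and 25 changed sign, with the cause not tested. Only values called in the main model could lose a call, and most of the 483 were not called there. The losses fell more on the 8 h calls than on the 4 h calls, most of all on Traf1, Birc3 and Map3k8 at 8 h. Without the intensity trend the number of genes called higher was 2 at 4 h, 0 at 8 h and 0 between genotypes, and 0 were called lower at 8 h. At 8 h the count called higher was 2 with no genotype term and 3 to 5 when each array was left out, and the count called lower was 0 with no genotype term, with the mean of the probe sets or with the other Traf1 probe set, and 0 to 1 when each array was left out. Between 8 h and 4 h the count called lower was 1 after median centring, 2 on the stimulated arrays alone, and 0 to 2 when each array was left out. Between genotypes the count called higher was 0 to 1 when each array was left out. Over the whole array, the share of genes called higher at 4 h ran from 0.776% without the trend to 11.3% with the stricter filter.

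The changes of sign were in values that were not called. At 4 h Traf1 gave 0.14 with the mean of its probe sets, 0.33 with the other one, and -0.13 to 0.016 when each array was left out. Birc2 ranged from -0.046 to 0.15 at 8 h and from -0.27 to 0.046 between 8 h and 4 h, and Rel from -0.56 to 0.040 between 8 h and 4 h, in the same runs. Between genotypes Nfkb2 gave -0.018 with the mean of its probe sets and -0.051 with the other one, Rela 0.0042 after median centring and 0.029 on the stimulated arrays alone, and Birc3 -0.0050 on the stimulated arrays alone. When each array was left out, these differences ran from -0.12 to 0.10 for Nfkb2, -0.11 to 0.28 for Rel, -0.10 to 0.037 for Rela, -0.044 to 0.13 for Birc2 and -0.0050 to 0.16 for Birc3. In the test of stimulation by genotype Traf1 gave -0.10 with the mean of its probe sets. No paired analysis was possible because each group holds 1 array and the labels carry no replicate numbers; genotype is already a term of the model.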

Other observations

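The kappa-B consensus was also counted in the promoter windows of the lists around the set. It occurred in 8 of 13 genes of the IkB and A20 list with a window (61.5%), in 4 of 11 survival genes (36.4%), and in 2 of 9 TNF family receptor genes (22.2%). It occurred in 2 of 8 genes (25.0%) of the list from the T cell receptor to IKK and in 2 of 8 (25.0%) of the noncanonical and TRAF list, which had 0 genes called higher at 4 h, and in 1 of 5 TNF family ligand genes. In the death receptor and IAP partner list it occurred in 0 of 9 genes and in the Map3k8 to ERK arm in 0 of 5. Among the genes called higher at 4 h 14.0% of 700 with a window held it, against 12.1% of 8836 tested genes. These are counts of letters in windows of 300 bases, with no test, and short lists give coarse shares.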
